A study of Homo sapiens with 12 samples.

Results

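The DNA replication machinery was followed through 43 genes whose products load, start and run the replication fork, in spheroids of SBC3, an established human small cell lung cancer cell line. The members are the rows of the count tables that carry the listed gene symbols. All 43 were found, each as 1 of the 60649 gene rows in a library, and all 43 were among the 16683 genes with enough reads to be tested. By role they comprised 6 subunits of the origin recognition complex, 3 licensing factors, the 6 subunits of the MCM2-7 helicase, 8 genes of helicase activation, 9 of the replicative polymerases and primase, 6 of the sliding clamp and its loader, 2 of Okazaki fragment maturation and 3 of the single-strand binding complex RPA.

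The 12 RNA sequencing libraries fell into 4 groups of 3: control spheroids and spheroids given teriflunomide, lurbinectedin or both drugs. The group given both drugs is here called the combination. Teriflunomide inhibits dihydroorotate dehydrogenase, an enzyme of pyrimidine synthesis. Lurbinectedin binds DNA and interferes with transcription by RNA polymerase II. All groups share 1 cell line, and dose, exposure time and whether the 3 libraries of a group came from separate cultures are not given in the labels, so p-values below measure the spread between these libraries, which may be technical.

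Before S phase, the origin recognition complex marks origins on DNA, and CDC6 and CDT1 then help it load the ring-shaped MCM2-7 helicase, a step called licensing. The kinase CDC7 with its partner DBF4, together with CDC45 and the GINS complex, turns the loaded ring into an active helicase. DNA polymerase alpha and primase lay down primers, the clamp PCNA is placed on them by replication factor C, polymerases delta and epsilon extend them, FEN1 and DNA ligase 1 finish the lagging strand, and RPA covers the exposed single strands. Many of these genes are known targets of E2F transcription factors at entry into S phase, and their RNA is high in proliferating cells such as small cell lung cancer.

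To show the start regions of the genes the results turn on, 300 bases around the start were read from RefSeq, build GRCh38.p14, running from 250 bases before the start to 50 after it. ORC6 and POLA1 are shown because they had the highest and the lowest change with lurbinectedin. MCM2, MCM3, MCM6 and MCM7 are shown because MCM2-7 genes were lower together with teriflunomide, though MCM3 was not called. MCM4 and MCM5, which were called lower, had no window among the start regions used. The genes shown were chosen after their values were seen. Each sequence is printed 5′ to 3′ on the gene's strand, and capitals mark matches on either strand to an E2F-type motif, TTTCCCGC, TTTCGCGC, TTTGCCGC or TTTGGCGC.
ORC6, chr16:46689409-46689708, plus strand: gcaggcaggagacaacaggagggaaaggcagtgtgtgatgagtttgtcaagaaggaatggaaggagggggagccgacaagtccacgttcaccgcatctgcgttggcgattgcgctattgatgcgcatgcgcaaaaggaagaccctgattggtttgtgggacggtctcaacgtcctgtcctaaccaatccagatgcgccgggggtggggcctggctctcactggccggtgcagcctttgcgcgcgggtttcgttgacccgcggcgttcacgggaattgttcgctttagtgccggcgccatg
POLA1, chrX:24693668-24693967, plus strand: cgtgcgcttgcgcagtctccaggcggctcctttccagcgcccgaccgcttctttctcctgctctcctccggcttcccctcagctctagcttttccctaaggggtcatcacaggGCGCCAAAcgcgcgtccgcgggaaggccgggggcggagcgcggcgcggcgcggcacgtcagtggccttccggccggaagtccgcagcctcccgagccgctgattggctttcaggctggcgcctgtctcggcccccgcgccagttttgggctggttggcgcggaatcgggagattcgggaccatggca
MCM2, chr3:127598161-127598460, plus strand: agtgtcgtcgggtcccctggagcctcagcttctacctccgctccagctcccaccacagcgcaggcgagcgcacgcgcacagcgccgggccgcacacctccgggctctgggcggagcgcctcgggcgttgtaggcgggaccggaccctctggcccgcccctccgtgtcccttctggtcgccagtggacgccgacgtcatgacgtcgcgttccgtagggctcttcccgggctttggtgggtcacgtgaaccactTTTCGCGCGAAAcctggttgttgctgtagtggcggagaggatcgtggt
MCM3, chr6:52284693-52284992, minus strand: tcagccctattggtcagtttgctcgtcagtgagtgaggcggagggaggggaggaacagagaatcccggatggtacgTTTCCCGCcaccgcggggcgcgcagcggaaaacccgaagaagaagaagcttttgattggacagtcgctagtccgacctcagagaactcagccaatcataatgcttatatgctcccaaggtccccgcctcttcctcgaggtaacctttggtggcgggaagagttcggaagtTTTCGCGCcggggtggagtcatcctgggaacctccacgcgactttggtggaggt
MCM6, chr2:135876394-135876693, minus strand: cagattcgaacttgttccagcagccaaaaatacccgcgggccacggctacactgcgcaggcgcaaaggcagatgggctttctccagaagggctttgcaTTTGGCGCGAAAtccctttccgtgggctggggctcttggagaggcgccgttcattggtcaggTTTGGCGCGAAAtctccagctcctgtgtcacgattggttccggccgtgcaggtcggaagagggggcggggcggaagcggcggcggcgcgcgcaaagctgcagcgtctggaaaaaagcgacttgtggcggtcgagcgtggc
MCM7, chr7:100101348-100101647, minus strand: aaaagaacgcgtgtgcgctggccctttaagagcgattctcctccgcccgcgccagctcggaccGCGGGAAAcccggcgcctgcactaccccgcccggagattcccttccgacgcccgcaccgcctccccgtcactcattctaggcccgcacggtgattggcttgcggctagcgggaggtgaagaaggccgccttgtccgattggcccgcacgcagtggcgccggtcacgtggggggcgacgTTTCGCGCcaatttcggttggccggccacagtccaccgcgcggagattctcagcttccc

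The MCM windows above each held at least 2 E2F-type matches, and those of MCM2 and MCM6 included matches on opposite strands that overlap each other. MCM7 has 3 annotated windows, and the one shown is the only one of them with a match. POLA1 had 1 such match, 137 bases before its start, and ORC6 had none in this window. The windows of POLD2 and POLE, also called lower with teriflunomide and not shown, held 0 and 1 such match. The table of start regions held 37 of the 43 members, in 47 windows, since some genes have several starts. An E2F-type match was present in 19 of these windows (40.4%) against 1164 of all 35116 windows (3.31%). The CCAAT box, searched as CCAAT on both strands, was in 25 member windows (53.2%) against 34.6% of all. The cell cycle homology region, searched as TTTGAA or TTCGAA on both strands, was in 2 member windows (4.26%) against 16.4% of all. The start regions of the members were also richer in G and C, with a median of 63.7% against 58.7%, and the E2F-type letters are themselves rich in them. The shares are not adjusted for base composition. With lurbinectedin the median change was 0.06 on the log2 scale for the 19 members with an E2F-type match in any window and -0.02 for the 18 without one. A match is a description of the letters, not a site of binding.

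Total counts per library ran from 23206414 to 33222162. The third teriflunomide library and the second combination library stood apart: reads from the mitochondrial genome made up 22.6% and 24.9% of their counts, against 8.42% and 8.43% in the other teriflunomide libraries and 13.1% to 14.6% in the other combination libraries. Control libraries were at 6.26% to 7.17% and lurbinectedin libraries at 13.8% to 17%. The third teriflunomide library correlated with the other 2 of its group at a Pearson r of 0.977 and 0.979 on the log2 scale across genes, where those 2 correlated at 0.995. It held the lowest value of its group in 25 of the 43 members and the highest in 15. Calls of members in teriflunomide against control are therefore given with and without it. Calls of genes outside the 43 are given only with it. Of the markers of small cell lung cancer given here, INSM1, NCAM1, POU2F3 and CHGA were at or near 0 in every library, while YAP1 (60.2 to 343 CPM), SYP (14.1 to 36.2) and NEUROD1 (1.5 to 6.51) were detected. Endothelial and blood cell markers were at or near 0 throughout, as were DCN and LUM, though the collagen genes COL1A1 and COL1A2 stood between 89.9 and 276 CPM. These collagens set the sum of the 4 fibroblast markers, which was 519 to 549 CPM in control, 465 to 484 in the teriflunomide group, 186 to 220 in the lurbinectedin group and 198 to 227 under both drugs. The 3 epithelial markers, of which KRT8 was detected and EPCAM and KRT18 were at or near 0, summed to 236 to 252, 196 to 307, 400 to 433 and 373 to 444 CPM in the same order. The part of either shift in the results below was not tested.

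Levels are given as CPM, the reads of a gene relative to all gene reads of its library, after TMM scaling, which sets libraries to a common scale. In control spheroids the members had a median log2 CPM of 6.18, from 2.92 for POLA2 to 9.36 for MCM4. Their summed level was 5119 ± 59.3 CPM in control (SD, n = 3), 4528 ± 294 in the teriflunomide group, 5610 ± 130 in the lurbinectedin group and 5220 ± 164 under both drugs. The order of these sums depends on the scaling: by library size alone they were 5579 ± 32.8, 4693 ± 839, 5200 ± 253 and 5080 ± 796 CPM in the same order, which puts both groups with lurbinectedin below control instead of above it. Compared per kilobase of exon, so that long and short transcripts can be set side by side, PCNA (118 CPM per kb), GINS4 (109) and MCM4 (94.2) were highest in control, and POLA2 (1.36), GINS3 (3.95) and POLE2 (5) lowest. Subunits of a complex did not share a level: within GINS, GINS1 stood at 28.7 and GINS2 at 13.3 CPM per kb, between GINS3 and GINS4. Of the MCM2-7 ring, MCM5 was lowest at 12.3 and the other subunits ran from 43.8 for MCM2 to 94.2 for MCM4. Exon bases of 19 members overlap those of another gene, and use of strand in the counting is not given in the sources used here. The overlap covered at least 20% of the exon bases for MCM2 (23.6%), GINS4 (21%) and POLA2 (36.1%). In control the gene that overlaps MCM2 held a mean of 15 reads against 6426 for MCM2. In bulk RNA, fewer cells in a cycling state and less RNA per cell cannot be told apart.

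Lurbinectedin against control asks what a drug aimed at transcription does to these genes. The replication genes split rather than moved together: 12 rose, 16 fell and 15 did not pass the test. The rises were led by ORC6, FEN1, CDT1, PCNA and GINS3 and the falls by POLA1, PRIM2 and PRIM1, 3 of the 4 subunits of the polymerase alpha and primase complex. Calls were made at a Benjamini-Hochberg adjusted p under 0.05 in edgeR's quasi-likelihood test over all 16683 genes. Across all tested genes, 71.6% were called in this comparison, 36.0% as higher and 35.7% as lower, so a call by itself is common here. The members' median log2 fold change was 0.05, the same as the median of all tested genes, with a range from -4.03 to 1.65. The groups did not overlap for 36 of the 43 members, and over all tested genes the share without overlap was 83.2%, close to that of the members.

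**Figure D1:**
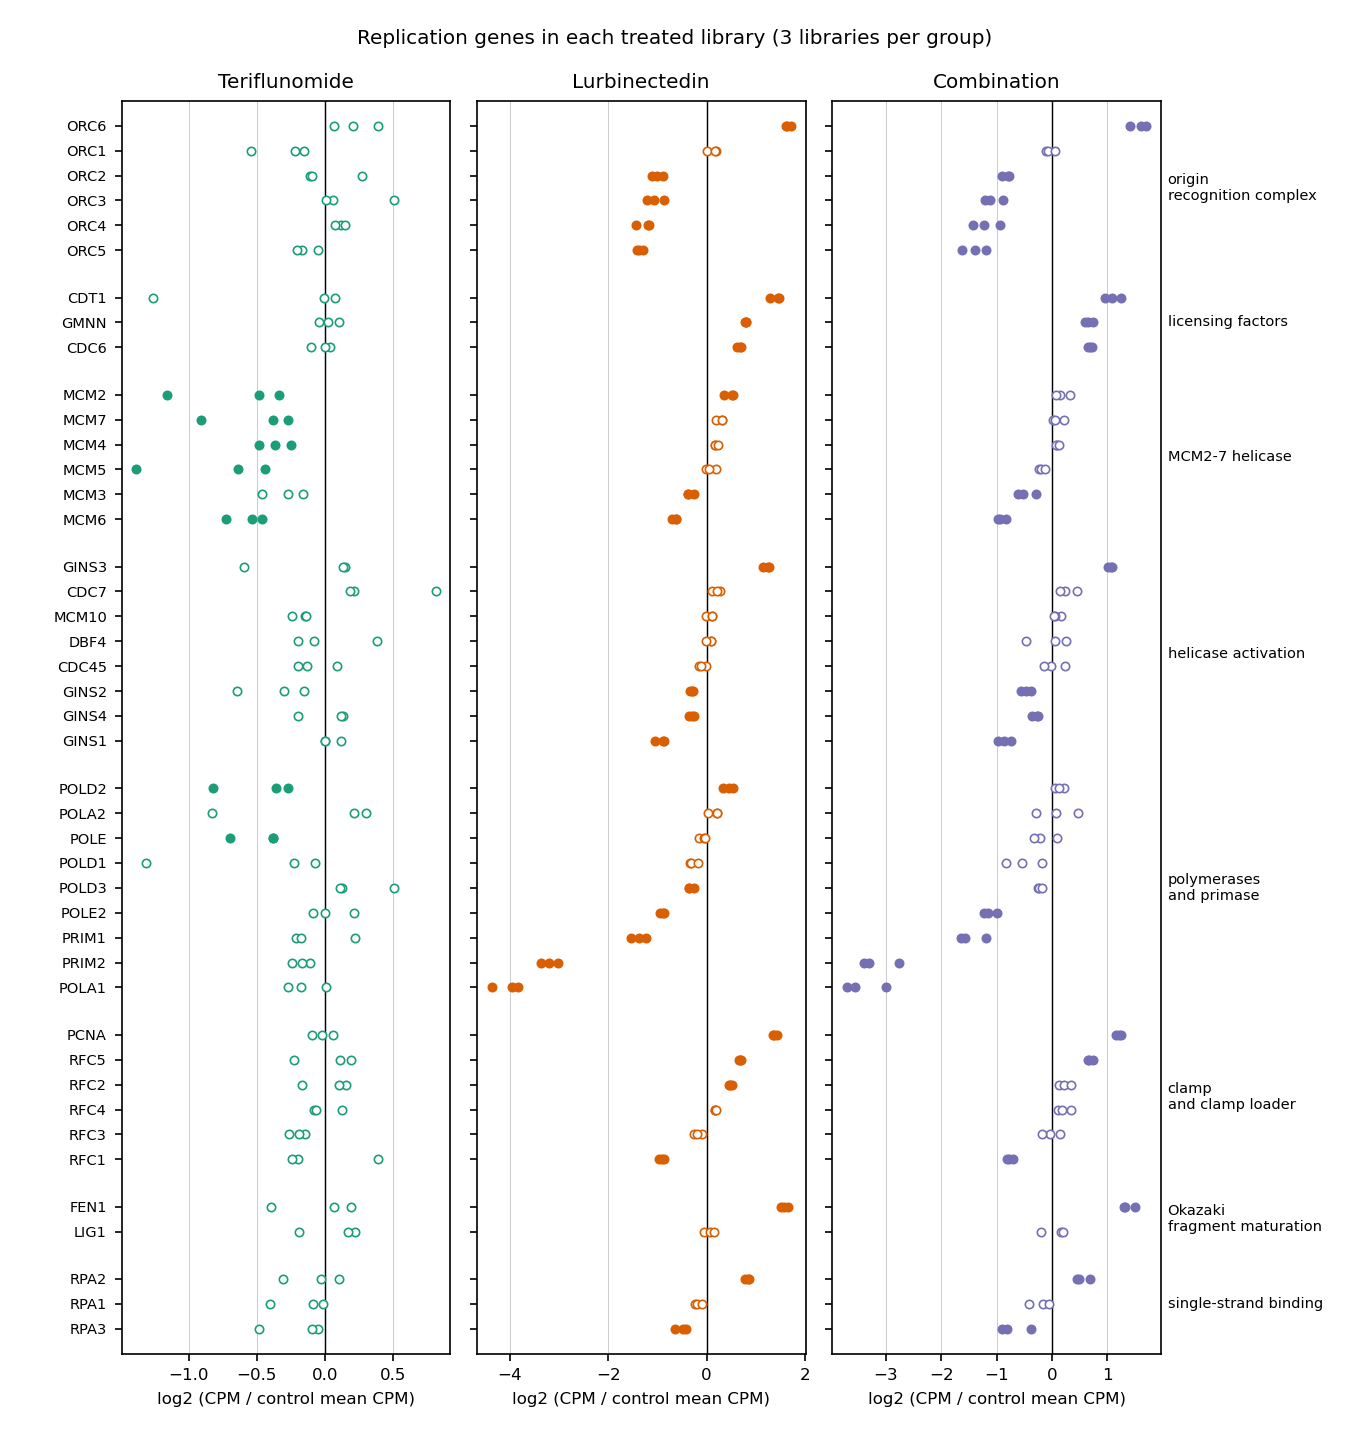
Each row is 1 replication gene, ordered by role, and each point is 1 library, placed by the log2 ratio of its CPM to the control mean; filled points mark genes called against control, and the 3 panels have different horizontal ranges. Lurbinectedin and combination libraries lie tightly together for most genes, with POLA1 and PRIM2 far to the left, while the teriflunomide panel shows all MCM2-7 points left of 0.

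Within the origin recognition complex, 1 subunit rose and 4 fell. ORC6, the smallest subunit, stood at 47.1, 46.8 and 51.1 CPM in control, 50.5, 55.6 and 63.2 with teriflunomide, 158, 148 and 149 under lurbinectedin and 129, 157 and 147 with the combination. Both groups that received lurbinectedin were above both that did not, with no overlap. Its log2 fold change with lurbinectedin was 1.65 (SE 0.11, edgeR adjusted p 1.1e-08), a 3.14-fold rise. ORC5, at the other end, stood at 26.7, 28.4 and 24.5 CPM in control, 23.7, 23.1 and 25.6 in the teriflunomide group, 10, 10.8 and 10.2 in the lurbinectedin group and 11.7, 10.2 and 8.58 under both drugs. It fell by 1.36 on the log2 scale (SE 0.129, edgeR adjusted p 3.91e-07). ORC2 (1.99-fold), ORC3 (2.06-fold) and ORC4 (2.39-fold), which sit in the ring that closes around DNA, also fell. ORC1, the subunit whose level is known to follow the cell cycle, was at 0.13 with an adjusted p of 0.33. The 4 subunits that fell span 54.7 to 91.2 kb of genome, ORC1 31.6 kb and ORC6 8.75 kb.

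All 3 licensing factors rose. CDT1, which escorts the helicase to origins, stood at 52.5, 53.4 and 57.4 CPM in control, 149, 133 and 151 in the lurbinectedin group and 115, 106 and 130 under both drugs. In the teriflunomide libraries it stood at 57.1, 54.1 and 22.7, the last being the library with the high mitochondrial share. Its log2 fold change with lurbinectedin was 1.40 (SE 0.243, edgeR adjusted p 0.000138). Geminin (GMNN), the inhibitor that binds CDT1 after S phase begins, rose by 0.80. CDC6, the ATPase that completes the loader, had the smallest rise of the 3, from 113, 118 and 119 CPM in control to 180, 186 and 190, or 0.67 on the log2 scale (SE 0.0821, edgeR adjusted p 5.22e-06). CDC6 levels in the combination were 184, 194 and 188 CPM, and in the teriflunomide libraries 120, 109 and 117. The 3 genes span 5.47 to 16.8 kb.

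The MCM2-7 helicase showed smaller changes, with 1 subunit higher, 2 lower and 3 not called. MCM2 went from 202, 207 and 211 CPM in control to 301, 264 and 296, a log2 change of 0.47 (SE 0.161, edgeR adjusted p 0.0168). This call did not hold without the first control library or without the first or the third lurbinectedin library, nor with scaling by library size alone, where the value was 0.24 (adjusted p 0.376). MCM6 fell from 197, 203 and 201 CPM to 129, 122 and 130, by 0.66 on the log2 scale (SE 0.0915, edgeR adjusted p 1.78e-05), with no overlap between groups. MCM3 fell by 0.33 on the log2 scale, from 214, 215 and 219 CPM to 165, 167 and 182 (edgeR adjusted p 0.0113). MCM4 went from 643, 670 and 657 to 737, 736 and 770 CPM, a log2 fold change of 0.19 that did not pass (adjusted p 0.0595). MCM7 went from 274, 270 and 279 to 338, 311 and 339 CPM, 0.26 on the log2 scale (adjusted p 0.0888). MCM5 values overlapped, with 89.3, 84.3 and 93.8 CPM in control and 102, 88.3 and 92.1 with lurbinectedin. The 3 subunits called here, whose products sit in 1 ring in equal numbers, differed in the sign of their change. Under scaling by library size alone, MCM4 was at -0.05 and MCM5 at -0.16, neither called, and MCM3 and MCM6 were still called lower.

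Among the genes of helicase activation, 1 rose and 3 fell. GINS3 stood at 20.5, 19.5 and 20.6 CPM in control, 22.3, 22.1 and 13.4 in the teriflunomide group, 48.5, 44.9 and 48.1 in the lurbinectedin group and 40.7, 42.4 and 42.7 under both drugs. It rose by 1.22 on the log2 scale (SE 0.159, edgeR adjusted p 9.47e-06). Its partner GINS1 went the other way, from 119, 125 and 111 CPM to 56.8, 65.1 and 64.1, and fell by 0.93 (SE 0.101, edgeR adjusted p 1.4e-06). GINS1 stood at 118, 118 and 128 CPM in the teriflunomide group and 70.6, 60 and 64.5 under both drugs, so the 2 groups without lurbinectedin lay above the 2 with it. GINS2 and GINS4 each fell by 0.30. The GINS2 call (edgeR adjusted p 0.0405) was lost when any 1 control or lurbinectedin library was left out. The remaining genes did not pass: CDC7 (0.19), MCM10 (0.07), DBF4 (0.05) and CDC45 (-0.09).

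The polymerases and primase held the deepest falls. POLA1, the catalytic subunit of DNA polymerase alpha, stood at 155, 164 and 158 CPM in control and 141, 132 and 160 with teriflunomide. With lurbinectedin it stood at 7.7, 10.2 and 11.2 CPM, and with the combination at 19.8, 12.2 and 13.5. The 2 pairs of groups were far apart, and the combination libraries were all above the lurbinectedin libraries. The log2 fold change with lurbinectedin was -4.03 (SE 0.189, edgeR adjusted p 5.01e-10), a 16.3-fold fall. POLA1 lies on chromosome X, from 24693873 to 24996986 on the plus strand in GRCh38 coordinates, a span of 303 kb.

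PRIM2, the large subunit of primase, fell from 31.4, 31 and 28.5 CPM to 3.29, 3.71 and 2.94, by 3.19 on the log2 scale (SE 0.164). It lies on chromosome 6 from 57314805 to 57646850, a span of 332 kb. A near copy, PRIM2BP, is listed on the same chromosome, and how reads that match both were treated is not given in the sources used here. PRIM1, the catalytic subunit of primase, fell by 1.38 (SE 0.152) from a mean of 36.7 ± 1.47 CPM to 14.1 ± 1.53 (SD, n = 3). It spans 21.1 kb, and its change lay 1.65 below the median of genes of like span. Its exons overlap those of NACA over 139 bases. POLA2, the fourth subunit of the complex, did not pass (0.16, adjusted p 0.578), at 7.6 ± 0.847 CPM in control and 8.48 ± 0.586 with lurbinectedin. POLA2 is the weakest measured member in control, and 36.1% of its exon bases overlap another gene on the same strand. With lurbinectedin PRIM2 was the lowest member, at 68, 95 and 81 reads.

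For polymerase delta, POLD2, an accessory subunit, went from 125, 118 and 123 CPM to 177, 154 and 167 and rose by 0.44 on the log2 scale (SE 0.127, edgeR adjusted p 0.00618), the highest change of the group. With both drugs POLD2 stood at 126, 142 and 134 CPM. POLD3 fell by 0.33, a call lost without the second control library, and the catalytic subunit POLD1 did not pass (-0.28, adjusted p 0.316). For polymerase epsilon, the catalytic subunit POLE was at -0.09 and did not pass, while its partner POLE2 fell by 0.90 (edgeR adjusted p 1.52e-05), from 14.8 ± 0.616 to 7.9 ± 0.239 CPM.

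Of the clamp and its loader, 3 genes rose and 1 fell. PCNA, the sliding clamp that also serves repair synthesis, stood at 164, 172 and 160 CPM in control, 172, 162 and 154 in the teriflunomide group, 445, 422 and 428 in the lurbinectedin group and 368, 390 and 384 under both drugs. Every library with lurbinectedin held more than 2 times the PCNA level of any library without it. The log2 fold change was 1.38 (SE 0.0829, edgeR adjusted p 3.82e-09). Copies of PCNA such as PCNAP1 are listed elsewhere in the genome, so reads could be shared with them. RFC1, the large subunit of the loader, went from 143, 152 and 151 CPM to 75.8, 79.8 and 82.2 and fell by 0.91 (SE 0.141, edgeR adjusted p 4.98e-05). RFC1 stood at 130, 126 and 195 CPM in the teriflunomide group and 92, 86.8 and 85.2 under both drugs. RFC5 rose by 0.67 and RFC2 by 0.48, and RFC4 (0.18) and RFC3 (-0.18) did not pass.

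FEN1, the nuclease that trims Okazaki fragment flaps, stood at 109, 109 and 110 CPM in control, 124, 114 and 82.9 in the teriflunomide group, 345, 309 and 326 in the lurbinectedin group and 270, 308 and 273 under both drugs. It rose by 1.58 on the log2 scale (SE 0.129, edgeR adjusted p 9.26e-08), with no overlap between groups. LIG1, the ligase that seals the same fragments, stood at 80.9, 86.1 and 90.4 CPM in control and 82.9, 90.2 and 94.5 with lurbinectedin, overlapping, with a log2 fold change of 0.06. LIG1 was at 100, 96.4 and 75 CPM in the teriflunomide group and 96.2, 74.6 and 98.5 under both drugs.

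The 3 subunits of RPA also parted. RPA2 rose by 0.83 (SE 0.111, edgeR adjusted p 1.27e-05), from 73.2, 76.6 and 73.8 CPM to 136, 128 and 134. It stood at 79.8, 73.1 and 60.3 CPM in the teriflunomide group and 105, 102 and 120 under both drugs. RPA3 fell by 0.51 (SE 0.153, edgeR adjusted p 0.00861), from 37.5, 35.9 and 33.7 CPM to 23, 26.7 and 25.6. RPA3 stood at 34.4, 33.4 and 25.5 CPM in the teriflunomide group and 27.6, 19.1 and 20.4 under both drugs. RPA1, the large DNA-binding subunit, did not pass (-0.17, adjusted p 0.196). RPA2 spans 23.2 kb, RPA1 70.4 kb and RPA3 82.1 kb.

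Genomic span, the distance from the first to the last base of a gene with introns included, went with this split. Across the 43 members, Spearman's rank correlation between span and the log2 fold change with lurbinectedin was -0.667, and across 16651 tested nuclear genes it was -0.572. Exon length, the part left in the mature RNA, gave -0.367 across the members. These are correlations across genes within the same libraries, so they are descriptions, and the genes are not independent replicates. The rule that lists these genes did not use their values, but the list was chosen with earlier results of these data known. Among the 38 members under 100 kb, the rank correlation was -0.721.

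Cut into 5 equal bins by span, all tested nuclear genes had median log2 fold changes of 0.69, 0.62, 0.28, -0.36 and -1.86 from the shortest to the longest bin. Of the 9 members in the 2 shortest bins (up to 16.2 kb), 6 rose and 2 fell, and the 2 were GINS2 and GINS4. Of the 14 members in the bin from 16.3 to 35.9 kb, 5 rose and 2 fell, with a median of 0.18. In the bin from 35.9 to 82.9 kb, none of 14 rose and 8 fell, with a median of -0.58. In the longest bin, 4 of 6 fell and 1 rose. Over all tested nuclear genes, the shares called higher were 51%, 56.9%, 44.6%, 21.2% and 5.82% from the shortest to the longest bin. The shares called lower were 12.5%, 12.3%, 21.2%, 49.1% and 83.7% in the same order. In all, 20 of the 43 members lay above the median of their bin.

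**Figure D2:**
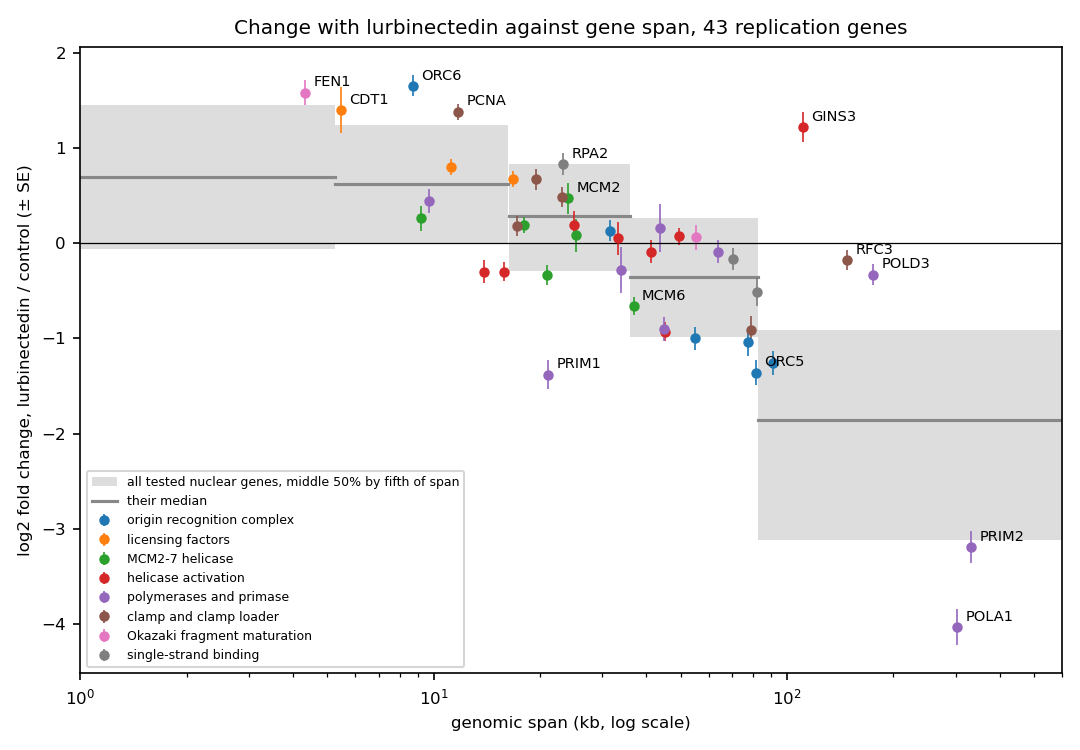
The log2 fold change with lurbinectedin against control (vertical axis, bars ± SE) is plotted against genomic span in kb on a log axis drawn from 1 kb, with each of the 43 genes coloured by role; grey blocks show the middle 50% and the median of all tested nuclear genes in 5 bins of span. The members step down with span along the grey blocks, and among the genes outside the blocks PRIM1 lies far below and GINS3 far above.

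The members farthest from genes of like span were GINS3, 3.08 above its bin median, and POLA1, 2.17 below. RFC3, at -0.18, and POLD3, at -0.33, lay 1.68 and 1.53 above the medians of their bins. The span in the deposited tables covers all exons listed there for a gene. For some genes it is far longer than in RefSeq, and for others shorter, such as MCM5 (25.3 against 54.9 kb) and PRIM2 (332 against 425 kb). GINS3 spans 111 kb in the tables and 13.7 kb in RefSeq, and POLD3 175 kb against 76.8 kb. With RefSeq spans, the rank correlation across the 43 members was -0.729. RFC3 keeps a long span in both, at 148 and 159 kb. POLA1 has the same 303 kb in both sources.

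Many of these genes start close to a gene on the opposite strand, back to back or overlapping, which gives pairs with neighbouring starts and different spans. In all, 17 members had a protein-coding neighbour on the opposite strand with a start within 1000 bases, and 16 of these neighbours were tested. The longer gene of the pair had the lower log2 fold change with lurbinectedin in 13 of the 16. Over all 1092 such pairs of tested protein-coding genes, it did so in 736 (67.4%). PCNA rose by 1.38 while CDS2, whose start is 253 bases away and which spans 71 kb, fell by 1.21. MCM4 was at 0.19 while PRKDC, 187 kb long with a start 7 bases away, fell by 2.05. ORC6 rose by 1.65 and its 33.4 kb neighbour VPS35 by 0.19. The 3 exceptions were PRIM1 with HSD17B6, POLE with PXMP2 and LIG1 with ZSWIM9. Some pairs differ little in span, such as ORC3 and RARS2 at 77.4 and 76 kb. Other pairs overlap at their starts and share exon bases, so reads could be shared between the genes. These are ORC4 with MBD5, MCM7 with AP4M1, DBF4 with SLC25A40, PRIM1 with HSD17B6 and RPA1 with SMYD4. Under teriflunomide the longer gene was lower in 8 of the 16 pairs, and in 44% of all pairs.

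**Figure D3:**
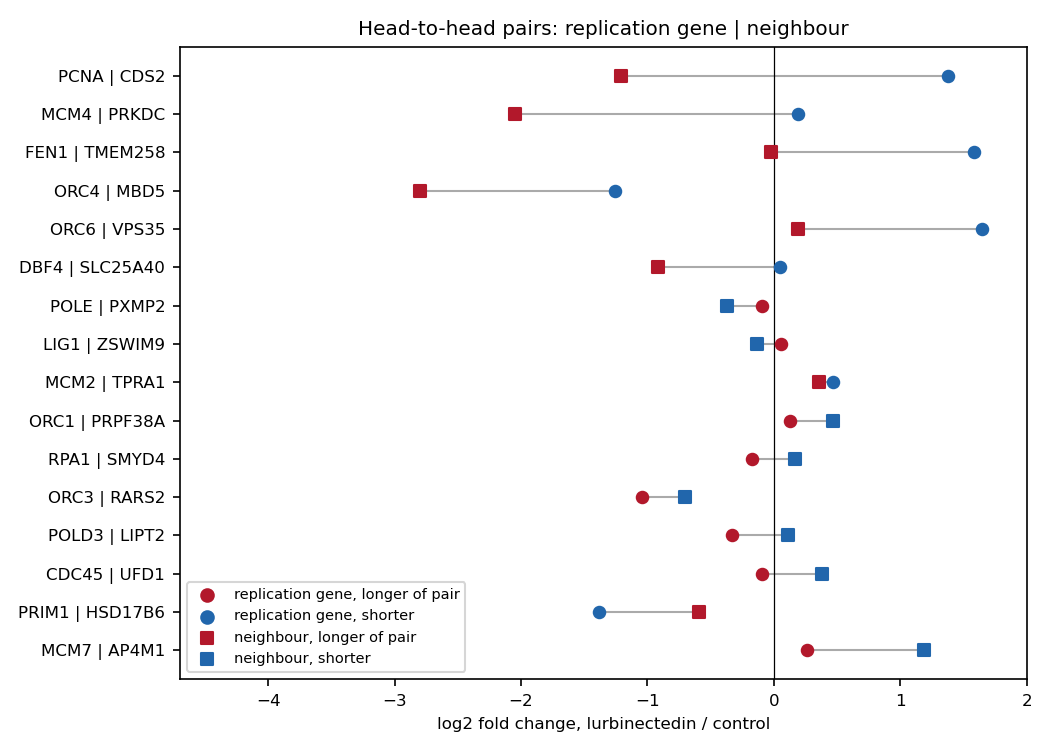
Each row joins a replication gene (circle) and its opposite-strand neighbour (square) at their log2 fold changes with lurbinectedin against control. Red marks the longer gene of the pair and blue the shorter, and some pairs overlap at their starts. In 13 of the 16 pairs the red point lies left of the blue one, with the widest gap for PCNA and CDS2.

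The combination against control gave 9 members higher and 15 lower. Across all tested genes 68.4% were called, 34.1% as higher and 34.4% as lower, and the members' median was -0.02 against 0.04 for all genes. This comparison uses the same 3 control libraries as the one above, so the values are given side by side and not as a repeat. ORC6 rose by 1.58 on the log2 scale against 1.65 with lurbinectedin alone, FEN1 by 1.38 against 1.58, PCNA by 1.20 against 1.38 and CDT1 by 1.10 against 1.40. POLA1 was at -3.39 against -4.03, and PRIM2 was at -3.13 against -3.19, PRIM1 at -1.45 against -1.38 and MCM6 at -0.92 against -0.66. In single libraries of the combination, MCM2 stood at 228, 218 and 259 CPM, MCM4 at 699, 690 and 714 and MCM7 at 279, 283 and 318. MCM3 stood at 151, 142 and 177 CPM, MCM5 at 75.4, 78 and 81.2 and MCM6 at 104, 102 and 112. MCM2, MCM4, MCM5 and MCM6 values did not overlap those of lurbinectedin alone, and all 4 were lower. None of the 4 passed that comparison (edgeR adjusted p 0.219 to 0.615), and 23.7% of all tested genes did not overlap in it. The 4 genes called with lurbinectedin but not with the combination were MCM2 (0.19, adjusted p 0.318), POLD2 (0.14, adjusted p 0.35), POLD3 (-0.23, adjusted p 0.0829) and RFC2 (0.23, adjusted p 0.0648). The rank correlation with span was -0.623 across the members and -0.546 across all genes. The combination against teriflunomide alone gave 16 members higher and 14 lower, with 70.9% of all genes called, 35.2% higher and 35.8% lower. In that comparison POLA1 fell by 3.25 and FEN1 rose by 1.41.

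These splits depend in part on scaling. With libraries scaled by total count alone, the median of all genes moved from 0.05 to -0.18 with lurbinectedin and from 0.04 to -0.13 with the combination, and the members' medians to -0.18 and -0.20. The share of all calls that were higher went from 50.2% to 39.2% and from 49.8% to 41%. The members then gave 9 higher and 17 lower with lurbinectedin, where 66% of all genes were called in either direction. With the combination they gave 8 higher and 16 lower, where 62.7% of all genes were called.

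Teriflunomide against control asks what a block of pyrimidine synthesis alone does to these genes. The only members that passed were 7 that fell, and 5 of them were subunits of the MCM2-7 helicase: MCM2, MCM4, MCM5, MCM6 and MCM7. The other 2 were POLE and POLD2, subunits of polymerases epsilon and delta. No member rose. Across all tested genes 6.01% were called, 3.88% as higher and 2.13% as lower, and the groups did not overlap for 16 of the 43 members, against 36.8% of all tested genes. The members' median was -0.07 against 0.03 for all genes, with a range from -0.77 (MCM5) to 0.43 (CDC7, not called).

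MCM6 had the smallest p. It stood at 145, 138 and 121 CPM with teriflunomide against 197, 203 and 201 in control, a log2 change of -0.57 (SE 0.0913, edgeR adjusted p 0.00353). All 3 teriflunomide libraries were below all 3 controls. MCM5 stood at 65.5, 57.2 and 34.2 CPM against 89.3, 84.3 and 93.8, or -0.77 (SE 0.175, edgeR adjusted p 0.0234). MCM4 stood at 552, 509 and 470 CPM against 643, 670 and 657, or -0.36 (SE 0.0844, edgeR adjusted p 0.0249). Neither gene's groups overlapped.

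MCM2 stood at 164, 148 and 93 CPM with teriflunomide (-0.61, SE 0.161, edgeR adjusted p 0.0417). MCM7 stood at 227, 210 and 146 CPM (-0.49, SE 0.133, edgeR adjusted p 0.0445). MCM3 stood at 193, 179 and 157 CPM and did not pass (-0.29, SE 0.105, edgeR adjusted p 0.11), though its groups did not overlap either. Summed over the 6 genes, MCM2-7 RNA was 1643 ± 20.8 CPM in control and 1203 ± 166 with teriflunomide (SD, n = 3).

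POLE stood at 189, 189 and 152 CPM with teriflunomide against 239, 241 and 259 in control (-0.48, SE 0.118, edgeR adjusted p 0.0314). POLD2 stood at 101, 94.9 and 69 CPM against 125, 118 and 123 (-0.46, SE 0.127, edgeR adjusted p 0.0472). The genes of licensing, the loader, FEN1, LIG1 and RPA did not pass. Among them CDT1 ranged from 22.7 to 57.1 CPM within the teriflunomide group. PCNA was at -0.02 (adjusted p 0.884) and ORC6 at 0.22 (adjusted p 0.217). With span, the rank correlation was 0.114 across the members and 0.219 across all genes, so longer genes were not lower here.

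**Figure D4:**
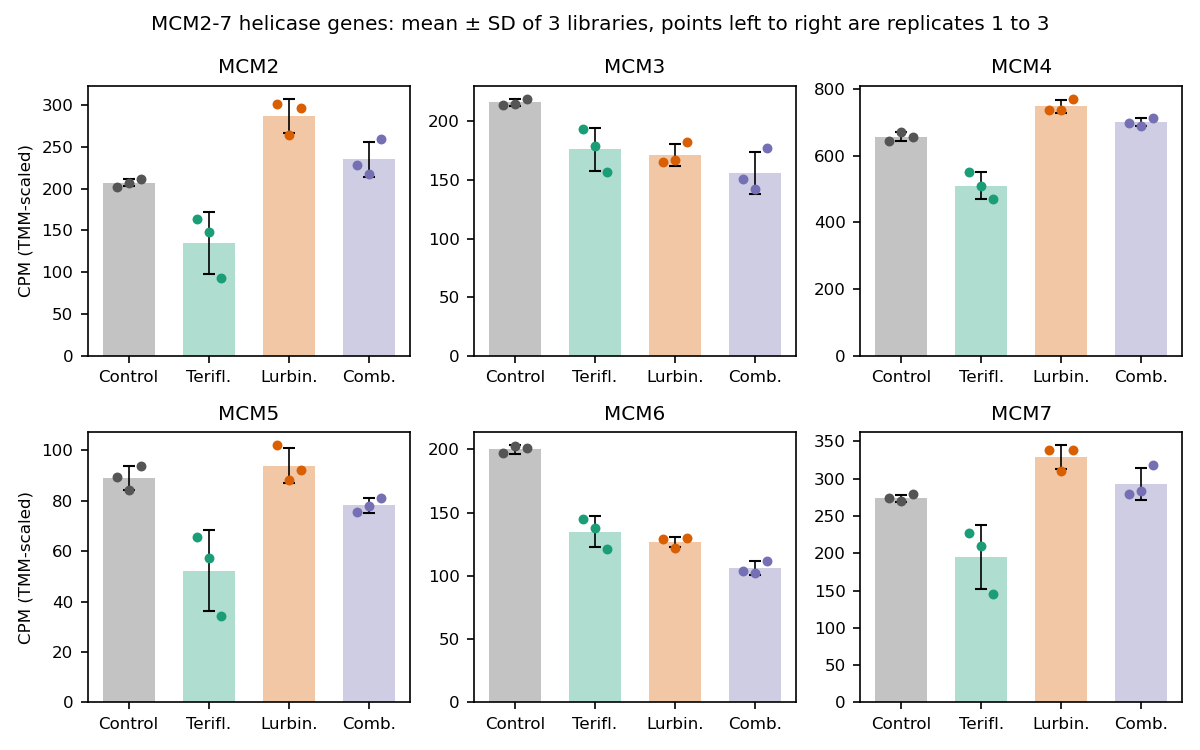
Each panel gives the CPM of 1 MCM2-7 gene as bars (mean of 3 libraries), error bars (SD) and points (single libraries) in control, teriflunomide, lurbinectedin and combination groups. The teriflunomide libraries lie below the controls in all 6 panels, the third of them lowest, while lurbinectedin libraries lie above control for MCM2, MCM4 and MCM7 (MCM4 at -0.05 on the log2 scale by library size alone) and below it for MCM3 and MCM6.

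In all 6 MCM2-7 genes the lowest teriflunomide value came from the third library, the one with 22.6% mitochondrial reads. Without it, 7 members passed, where 9.11% of all genes were then called, and the log2 fold changes were -0.50 for MCM6 (edgeR adjusted p 0.000589), -0.54 for MCM5 (0.00148), -0.40 for MCM2 (0.00912), -0.31 for MCM4 (0.0136), -0.33 for MCM7 (0.0171) and -0.22 for MCM3, which again did not pass (0.145). POLE was then at -0.39 (edgeR adjusted p 0.0223) and POLD2 at -0.32 (edgeR adjusted p 0.0281). The part of mitochondrial share or RNA quality in the values of the third teriflunomide library was not tested. The count of 7 was fragile in other ways: leaving out any 1 control library left 1 call, MCM6 alone held in all 12 fits that each left out 1 library, and with scaling by library size alone no member passed (MCM6 adjusted p 0.0582). By library size alone 1.59% of all genes were called, against 6.01% with TMM scaling. All 6 MCM2-7 genes were lower with teriflunomide under every scaling tried.

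Teriflunomide given on top of lurbinectedin was tested by the combination against lurbinectedin alone, which shares no library with the comparison of teriflunomide against control. No member passed, and no gene of the 16683 did (0% called in edgeR). At an unadjusted p under 0.05, 6 members passed, where 15.6% of all genes did. The groups did not overlap for 16 of the 43 members, against 23.7% of all tested genes. The 7 genes that fell with teriflunomide alone all had log2 fold changes below 0 here, from -0.05 for POLE to -0.31 for POLD2, and MCM2-7 ranged from -0.09 (MCM4) to -0.29 (MCM2). A value below 0 was common among the members: 27 of the 43 were below 0 and 15 above. Their median was -0.07, against 0.03 for all genes. By library size alone POLE was at 0.03 and MCM4 at -0.02, while MCM2, MCM3, MCM5, MCM6, MCM7 and POLD2 ran from -0.05 to -0.24. MCM6 stood at 104, 102 and 112 CPM in the combination against 129, 122 and 130 with lurbinectedin, with no overlap (edgeR adjusted p 0.219). POLA1 was higher in the combination by 0.64 (SE 0.178, edgeR adjusted p 0.154), with no overlap between groups.

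The teriflunomide libraries enter this comparison only through the choice of genes tested and the estimates of scale and spread that all groups share. Without the third of them, 8 members passed in that comparison, where 12.1% of all genes were then called. POLA1 was higher (0.64, edgeR adjusted p 0.0184), and MCM6, MCM2, MCM5, CDT1, POLD2, RFC2 and RPA2 were lower, by 0.24 to 0.30 on the log2 scale. Without both libraries that stood apart, 10 members passed against 21.5% of all genes, with PCNA and FEN1 added on the lower side.

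The interaction asks whether the effect of teriflunomide differed with and without lurbinectedin. No member passed, and 43 of the 16683 genes did (0.258%). At an unadjusted p under 0.05, 5 members passed, where 10.3% of all genes did. The largest value was for POLA1, 0.78 (SE 0.241, edgeR adjusted p 0.266). For MCM2-7 the interaction was above 0 for every gene, from 0.16 for MCM3 to 0.50 for MCM5, with adjusted p of 0.416 or more, so a difference between the 2 settings was not shown. Without the third teriflunomide library 1 member passed, POLA1, at 0.87 (edgeR adjusted p 0.0398), where 3.61% of all genes were called. Without both libraries that stood apart, 5 passed, with POLA1 (0.99), POLE (0.42) and RFC1 (0.38) above 0 and FEN1 (-0.38) and RFC2 (-0.37) below it, where 10.9% of all genes were called.

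Genes that act around the machinery also split. Of 31 other fork and origin genes, 13 rose and 7 fell with lurbinectedin, where 36.0% of all tested genes were called higher and 35.7% lower, with a median of 0.24 against 0.05 for all genes. The largest rises were RNASEH2A (2.31), a subunit of the enzyme that removes RNA from DNA, which was low at 0.957 ± 0.234 CPM in control and 4.78 ± 0.556 with lurbinectedin, and LRWD1 (1.93), a partner of the origin recognition complex. The largest falls were MCM9 (-1.31), a relative of the MCM2-7 genes, and MTBP (-1.19), an origin firing factor. MCM9 spans 122 kb and RNASEH2A 7.06 kb. With teriflunomide 1 of the 31 fell, SSRP1 (-0.34, edgeR adjusted p 0.0351), a histone chaperone subunit that travels with the fork, and none rose. Of all tested genes, 2.13% were called lower and 3.88% higher with teriflunomide.

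Of 20 regulators of E2F activity and S phase entry, 11 rose and 6 fell with lurbinectedin, against the same 36.0% and 35.7% of all genes. CDKN1A, the p53-induced inhibitor of cyclin-dependent kinases, had the largest rise, 4.76 on the log2 scale, from 22.8 ± 1.61 to 620 ± 42.2 CPM. E2F7, a repressor of E2F targets, rose by 2.40, from 47 ± 3.58 to 247 ± 9.54 CPM. TFDP2, a dimer partner of E2F proteins with a span of 205 kb, fell by 3.95, and RB1, the retinoblastoma gene with 296 kb, fell by 2.21. With teriflunomide, CDKN1A (0.94), E2F7 (0.71) and RBL2 (0.43), a relative of RB1, rose and E2F2 (-0.92), an activator of S phase genes, fell. The shares of all tested genes with teriflunomide were 3.88% called higher and 2.13% called lower. CDKN1A stood at 52.1, 52.2 and 26.7 CPM in the teriflunomide libraries against 21.1 to 24.2 in control, so the third library lay apart again.

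Of 14 genes of G2 and mitosis, 2 rose and 6 fell with lurbinectedin, against 36.0% and 35.7% of all genes, with a median of -0.20. CDK1 (0.81) and AURKB (0.64) were the 2 that rose, with spans of 16.5 and 5.87 kb, and the largest falls were BUB1B (-1.51) and BUB1 (-1.06), spindle checkpoint kinases of 60.1 and 40.5 kb. None of the 14 passed with teriflunomide, where 6.01% of all tested genes did. The members and these lists were all measured in the same libraries, so their counts are not separate lines of evidence.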

How the data were processed

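Raw read counts per gene were used as deposited by the authors, 1 table per library and 60649 gene rows each. Per the labels' protocols, RNA was purified by column and libraries were made with a kit for messenger RNA. Per the submitters' processing notes, the build was hg38 and the tools included fastp 0.23.2, STAR 2.7.9, Subread and featureCounts; use of strand and of reads matching several places is not given in the sources used here. All 37318 gene identifiers with the same version in GENCODE 29 had identical coordinates, so positions are GRCh38 coordinates. Reads are not independent molecules, and strand and multiple matches could shift counts of overlapping or copied genes.

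Genes were kept by filterByExpr and fitted in edgeR 4.0.16 (R 4.3.3) with TMM scaling, 1 mean per group and all 12 libraries in 1 robust quasi-likelihood model, whose biological coefficient of variation was 14.5%. Of 6 contrasts, 3 set a treated group against control, 2 set the combination against a single drug, and 1 was the interaction. P-values were adjusted by Benjamini-Hochberg over all 16683 genes, with calls under 0.05, and the script was tested on simulated data. Alternatives were DESeq2 1.42.0, DESeq2 size factors, library size only, other filters, a replicate block, a TREAT test against 1.5-fold, fits of only the groups compared, an adjusted p under 0.01 and leaving out libraries. RefSeq spans, members under 100 kb and medians without the libraries that stood apart were added after seeing the data.

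The members and gene lists were chosen with earlier results of these data known. Genes were named by rule: per role the highest and lowest member with lurbinectedin in every library, members called in the other contrasts and MCM2-7, and from each other list the 2 largest called rises and falls. Replicate numbers did not pair the libraries: correlations of same-numbered libraries' deviations ran from -0.402 to 0.144. A marker gene of the small cell lung cancer list is not reported here.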

Additional observations from a re-analysis of the deposited data

How the results depend on the processing

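No member called against control changed sign under the alternatives tried. Library size only turned the sign of values that were not called, among them MCM4 (0.19 to -0.05) and MCM5 (0.08 to -0.16) with lurbinectedin, and put the summed member level with lurbinectedin at 5200 against 5579 CPM in control, where it was 5610 against 5119. With summed exon length, the rank correlation of length and change with teriflunomide was -0.063. Testing against a 1.5-fold change (TREAT) left 17 members called for lurbinectedin against control, 15 for the combination against control, 15 for the combination against teriflunomide and 0 for teriflunomide against control. The 7 calls for teriflunomide against control became 0 with library size only, 2 with the replicate block, 1 with only the groups compared and 1 at an adjusted p under 0.01. They ranged from 1 to 8 when 1 library was left out: 1 without any 1 of the control libraries, 3 without the second teriflunomide library, 7 without the third, 3 or 4 without a lurbinectedin library and 4 without the first combination library. The cause was not tested. Over all genes, the share called for teriflunomide against control was 6.01% with the settings used above. It was 1.59% with library size only, 2.49% with the replicate block and 9.11% without the third teriflunomide library. Shares of all genes for TREAT, for only the groups compared and for the stricter threshold are not given here. The combination against lurbinectedin gave 1 call without the low-count filter and 1 with DESeq2 (POLA1 in both), 0 to 8 when 1 library was left out, and 10 without both libraries that stood apart. The interaction gave 1 without the low-count filter, 0 to 1 when 1 library was left out and 5 without both. Libraries share only a replicate number, and the replicate block cost lurbinectedin against control 1 call. There the share of all genes called went from 71.6% to 69.5%. Library size only moved the members' medians to -0.18 with lurbinectedin, -0.20 with the combination and -0.13 with teriflunomide, and DESeq2 size factors moved the first to 0.02. At 23206414 or more counts per library, genes with few reads such as POLA2 and RNASEH2A are measured with less precision.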

Other observations

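The genes named here were chosen after their levels were seen. GINS4 and MCM4 ranked at the 98.3 and 97.9 percentiles of 12898 tested protein-coding genes by control CPM per kilobase of exon, whose median was 4.42. GINS4 stood at 109 CPM per kb, and the 11 other tested protein-coding genes with a start within 1 Mb of its own had a median of 6.33 and a highest value of 103, for GOLGA7. MCM4 stood at 94.2 CPM per kb, and the 6 genes around it had a median of 15.2 and a highest value of 170, for PRKDC, which shares its start region with MCM4. RFC3 had 1 tested protein-coding neighbour in the same window, STARD13, at 0.106 CPM per kb against 24.7 for RFC3 itself.

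KRT18, the usual filament partner of KRT8, was at 0 to 0.322 CPM in libraries where KRT8 stood at 196 to 444 CPM. How reads that match several places were counted is not given in the sources used here. Whether KRT18 reads were lost in counting was not tested.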
